A study of Homo sapiens with 8 samples.

Results

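The genes described here are 39 genes of endoplasmic reticulum (ER) protein folding and the unfolded protein response, named by symbol and found by their Ensembl identifiers among the 38592 genes of the deposited table. They fall into 16 chaperones and folding enzymes, 11 genes of the IRE1 and XBP1 branch and of ER-associated degradation, 9 genes of the PERK and ATF4 branch, and 3 transcription factors of the ATF6 and CREB3L families. All 39 were matched, detected and passed the filter on low counts, so none was lost before testing.

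Bulk RNA-seq was available for 21 libraries of islet-stage cells differentiated from H1, a human embryonic stem cell line, and harvested on day 18. By their labels the cells were knockouts (KO) of 1 of 3 transcription factor genes of islet development, in groups called ISL1 KO, PAX6 KO and PDX1 KO, or wild type (WT). On day 11 every group had received a vector, which carried ISL1 together with blue fluorescent protein in the groups labelled ISL1 OE and only the fluorescent protein in the groups labelled BFP. With ISL1 OE there were 3 ISL1 KO, 3 PAX6 KO, 2 PDX1 KO and 2 WT libraries, and with BFP there were 3 ISL1 KO, 3 PAX6 KO, 3 PDX1 KO and 2 WT libraries. The labels do not say whether a knockout is 1 clone or several, which bases were removed, or which promoter drives the vector. The replicates are called biological, and the labels do not say whether they came from separate differentiations, so p-values measure the spread between these libraries.

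Proteins destined for secretion fold in the ER with the help of chaperones such as HSPA5, a resident HSP70 protein also called BiP, and of enzymes that form disulfide bonds. When unfolded proteins gather, sensors in the ER membrane respond: IRE1, encoded by ERN1, removes a short intron from XBP1 mRNA; PERK, encoded by EIF2AK3, slows translation and favours that of ATF4; and ATF6 is cut to release a transcription factor. Islet endocrine cells make large amounts of hormone precursors and depend on this machinery, and PERK and XBP1 are both needed for the function of insulin-producing cells in mice.

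Each library held 40959467 to 66818614 estimated counts and 24721 to 27304 detected genes. Counts of ISL1 did not separate ISL1 OE from BFP in any genotype (log2 difference of 0.11 in ISL1 KO, 0.15 in PAX6 KO, 0.54 in PDX1 KO and -0.27 in WT, none called by edgeR), so these groups are named as labelled. ISL1 itself was at 64.7 to 72.0 counts-per-million (CPM) in ISL1 KO BFP libraries, against 285 to 484 CPM in WT BFP libraries. Counts of PAX6 in PAX6 KO (log2 difference from WT of -0.52, adjusted p = 0.569, edgeR) and of PDX1 in PDX1 KO (0.25, adjusted p = 0.572) did not separate these knockouts from WT, so those directions too rest on the labels. The endocrine markers, CHGA among them, were detected in every group. With BFP they summed to 26420 to 35980 CPM in ISL1 KO, 18110 to 29880 CPM in PAX6 KO and 47910 to 51520 CPM in PDX1 KO. In WT with BFP the sum was 23740 to 29310 CPM, below every PDX1 KO library. Counts for 15 liver genes summed to 6724 to 13190 CPM in the knockouts with BFP, against 25750 to 28240 CPM in WT with BFP.

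In 2 libraries the profile stood apart from the rest of their group. The median correlation with libraries of the other groups was 0.927 for PAX6 KO ISL1 OE replicate 3 and 0.906 for PDX1 KO ISL1 OE replicate 4, where every other library had 0.964 or more. In both, members with long transcripts tended to be low and members with short transcripts tended to be high, with exceptions such as the long ERN1, higher in both, and the shorter CALR, lower in both. SEL1L, an adaptor of the degradation ligase with a long transcript, was 2.44 log2 units lower in PDX1 KO replicate 4 than in replicate 2, and SEC61B, a short subunit of the protein channel, was 2.35 log2 units higher. Over the 39 members, Spearman's rho between this ratio and the length of the longest transcript was -0.62 in PDX1 KO replicate 4 and -0.61 in PAX6 KO replicate 3. Over 11094 genes of at least 10 CPM it was -0.57 and -0.61 in the same libraries. When 1 library of each of the other 6 groups was set against its group, rho over the members ran between -0.59 and 0.47, so a relation to length was not confined to these 2. The 39 genes share libraries and depth, and these correlations are a description. A model over all 8 groups shares 1 estimate of spread, so counts of members called are given with all 21 libraries and, for the members and their branches, again without these 2.

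**Figure D1:**
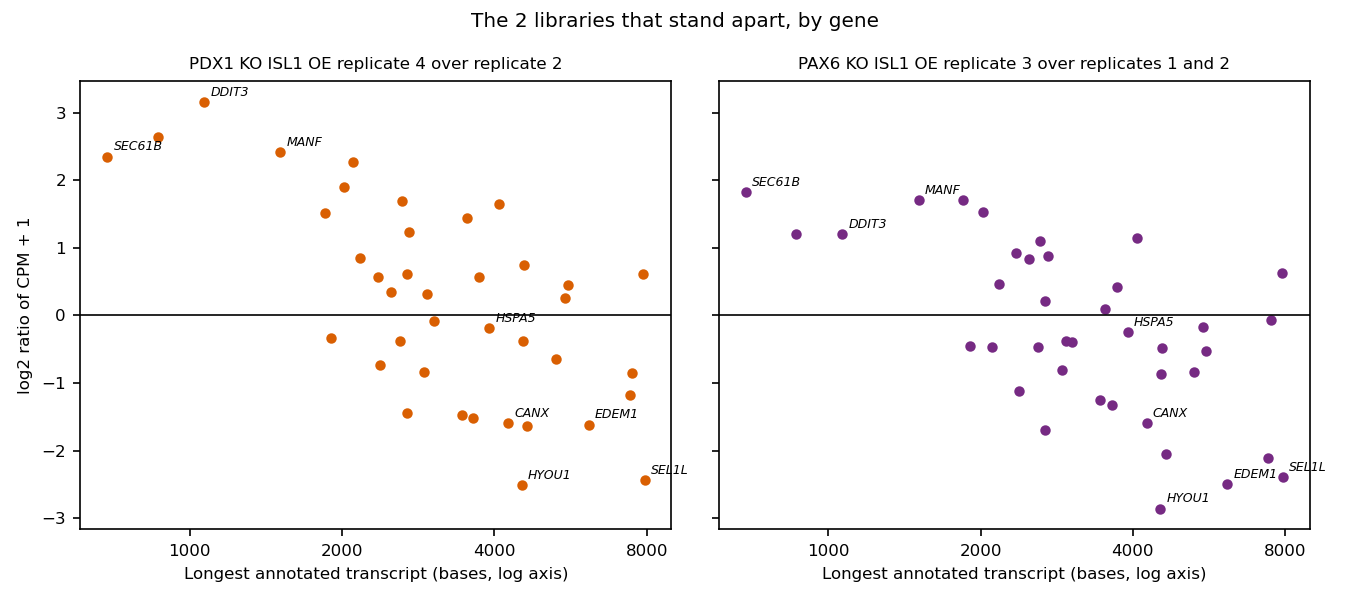
Log2 ratio of each of the 39 members (vertical) against the length of its longest annotated transcript in bases (horizontal, log axis), for PDX1 KO ISL1 OE replicate 4 against replicate 2 and for PAX6 KO ISL1 OE replicate 3 against the mean of replicates 1 and 2. Points are genes; SEC61B, with a short transcript, lies above 0 in both, and SEL1L and HYOU1, with long ones, lie below 0.

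The promoters of 5 members are printed because their values are given below and they show the sequence elements by which the response is known to act. Each run holds 250 bases before and 50 bases from the annotated start on, taken from RefSeq (GRCh38.p14), 5′ to 3′ on the gene's strand. HSPA5 (chr9:125241294-125241593, minus strand), PDIA6 (chr2:10812736-10813035, minus strand) and ERO1B (chr1:236281909-236282208, minus strand) show the ER stress response element in capitals. HERPUD1 (chr16:56931892-56932191, plus strand) shows the second type of that element and an ATF4 composite element, and CHAC1 (chr15:40953221-40953520, plus strand) shows the ATF4 composite element.
HSPA5: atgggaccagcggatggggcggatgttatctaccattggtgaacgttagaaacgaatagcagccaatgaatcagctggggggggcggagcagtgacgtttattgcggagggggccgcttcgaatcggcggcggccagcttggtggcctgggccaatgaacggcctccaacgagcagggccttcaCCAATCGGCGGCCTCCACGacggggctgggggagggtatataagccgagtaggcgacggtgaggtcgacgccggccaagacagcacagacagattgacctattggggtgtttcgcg
PDIA6: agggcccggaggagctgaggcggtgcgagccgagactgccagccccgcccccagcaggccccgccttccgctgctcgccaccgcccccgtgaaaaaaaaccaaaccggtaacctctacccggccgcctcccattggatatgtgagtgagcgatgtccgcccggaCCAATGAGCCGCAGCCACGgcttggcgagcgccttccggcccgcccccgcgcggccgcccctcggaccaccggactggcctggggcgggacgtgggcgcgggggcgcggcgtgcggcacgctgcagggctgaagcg
ERO1B: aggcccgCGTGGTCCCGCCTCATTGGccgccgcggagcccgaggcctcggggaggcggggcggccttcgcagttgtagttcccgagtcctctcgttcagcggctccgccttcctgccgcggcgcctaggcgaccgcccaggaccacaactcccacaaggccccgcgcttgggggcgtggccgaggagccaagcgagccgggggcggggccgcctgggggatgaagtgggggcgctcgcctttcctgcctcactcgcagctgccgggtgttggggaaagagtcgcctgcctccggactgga
HERPUD1: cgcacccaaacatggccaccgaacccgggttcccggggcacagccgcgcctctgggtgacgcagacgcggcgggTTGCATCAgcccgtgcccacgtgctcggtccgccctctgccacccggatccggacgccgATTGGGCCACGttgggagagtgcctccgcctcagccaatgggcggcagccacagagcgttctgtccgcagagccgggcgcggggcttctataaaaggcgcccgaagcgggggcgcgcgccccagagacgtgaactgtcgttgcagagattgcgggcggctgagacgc
CHAC1: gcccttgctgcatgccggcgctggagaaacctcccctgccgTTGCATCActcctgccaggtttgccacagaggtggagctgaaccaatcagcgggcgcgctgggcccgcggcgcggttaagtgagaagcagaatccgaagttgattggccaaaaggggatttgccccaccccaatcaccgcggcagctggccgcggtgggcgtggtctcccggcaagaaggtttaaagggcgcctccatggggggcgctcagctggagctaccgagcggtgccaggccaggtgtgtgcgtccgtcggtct

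The ER stress response element, searched on both strands as CCAAT and CCACG with 9 bases of any kind between them, stood in the windows of 8 of the 36 members that have one in the table (22.2%), against 25 of all 27305 genes with a window (0.0916%). These 8 were CALR, CANX, CRELD2, ERO1B, HSP90B1, HSPA5, PDIA6 and XBP1. The second type, ATTGG and CCACG with 1 base between them, stood in HERPUD1, HYOU1 and SDF2L1 (8.33% of members, 0.0696% of all genes). The XBP1-type element TGACGTGG was found in HYOU1 alone among the members (2.78%), where it overlaps a second-type element, and in 0.927% of all genes. The ATF4 composite element TGATGNAA stood in ASNS, ATF3, CHAC1, CREB3L2 and HERPUD1 (13.9% of members, 4.46% of all genes). A gene with several annotated starts was counted once if any of its windows held the letters, and DERL1, DERL3 and PDIA3 were not in the table. In HSPA5 the element lies at bases -66 to -48 from the start, in PDIA6 at -86 to -68, and in ERO1B, on the opposite strand, at -243 to -225.

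Measured per length, the folding enzymes were the most abundant members. PDIA3, a disulfide isomerase that works on glycoproteins, averaged 998 transcripts-per-million (TPM) over the 21 libraries, HSPA5 952 TPM, the HSP90 of the ER (HSP90B1) 842 TPM and the isomerase P4HB 679 TPM. XBP1 was the highest of the transcription factors at 484 TPM, above ATF4 at 277 TPM. At the low end stood ERN1 at 14.3 TPM, the mannosidase-like degradation factor EDEM1 at 13.3 TPM and DERL3, a channel-like protein of ER-associated degradation, at 11.0 TPM. The members that varied most between group means in TPM were ERO1B (9.41-fold between the highest and the lowest group), ATF3 (4.95-fold) and ERN1 (4.51-fold).

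Among BFP libraries, ER chaperones and folding enzymes fell in all 3 knockouts relative to WT, and no chaperone rose. In all, 6 of the 16 passed the test in ISL1 KO, the same 6 in PAX6 KO, and these 6 with PDIA4 and P4HB in PDX1 KO. The shared 6 were HSPA5, HSP90B1, PDIA3, PDIA6, ERO1B and DNAJC3. Over all 39 members, 0 rose and 8 fell in ISL1 KO (20.5% of members, against 6.52% of the 22207 genes tested), 0 rose and 9 fell in PAX6 KO (23.1%, against 6.65%), and 0 rose and 14 fell in PDX1 KO (35.9%, against 11.4%). Genes that fell made up 4.48%, 4.24% and 6.84% of those tested in the same 3 comparisons. The median log2 difference of the members was -0.52 for ISL1 KO, -0.53 for PAX6 KO and -0.62 for PDX1 KO, where the median of all genes tested was 0.03, 0.00 and 0.02. The 3 comparisons share the same 2 WT libraries. Calls are edgeR quasi-likelihood tests with Benjamini-Hochberg adjusted p under 0.05, and CPM are scaled by the trimmed mean of M-values (TMM).

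Without the 2 libraries that stand apart, the estimate of spread was smaller (for HSPA5 in PDX1 KO, -1.05 ± 0.08 in place of -1.03 ± 0.15), and 0 members rose and 25 fell in ISL1 KO, 1 rose and 21 fell in PAX6 KO, and 2 rose and 25 fell in PDX1 KO. The share of all genes called was larger too, at 28.4% for ISL1 KO, 28.7% for PAX6 KO and 33.3% for PDX1 KO. Of the 16 chaperones and folding enzymes, 14 then fell in each knockout. Leaving out WT BFP replicate 3 alone left 1 member called in ISL1 KO, 1 in PAX6 KO and 8 for PDX1 KO, and leaving out WT BFP replicate 1 left 3, 3 and 9. Leaving out a knockout library left 3 to 5 members called in ISL1 KO, 4 to 7 in PAX6 KO and 8 to 11 in PDX1 KO. For fits with 1 library left out, here and below, no share of all genes called is given. Those counts therefore cannot be read against the background.

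**Figure D2:**
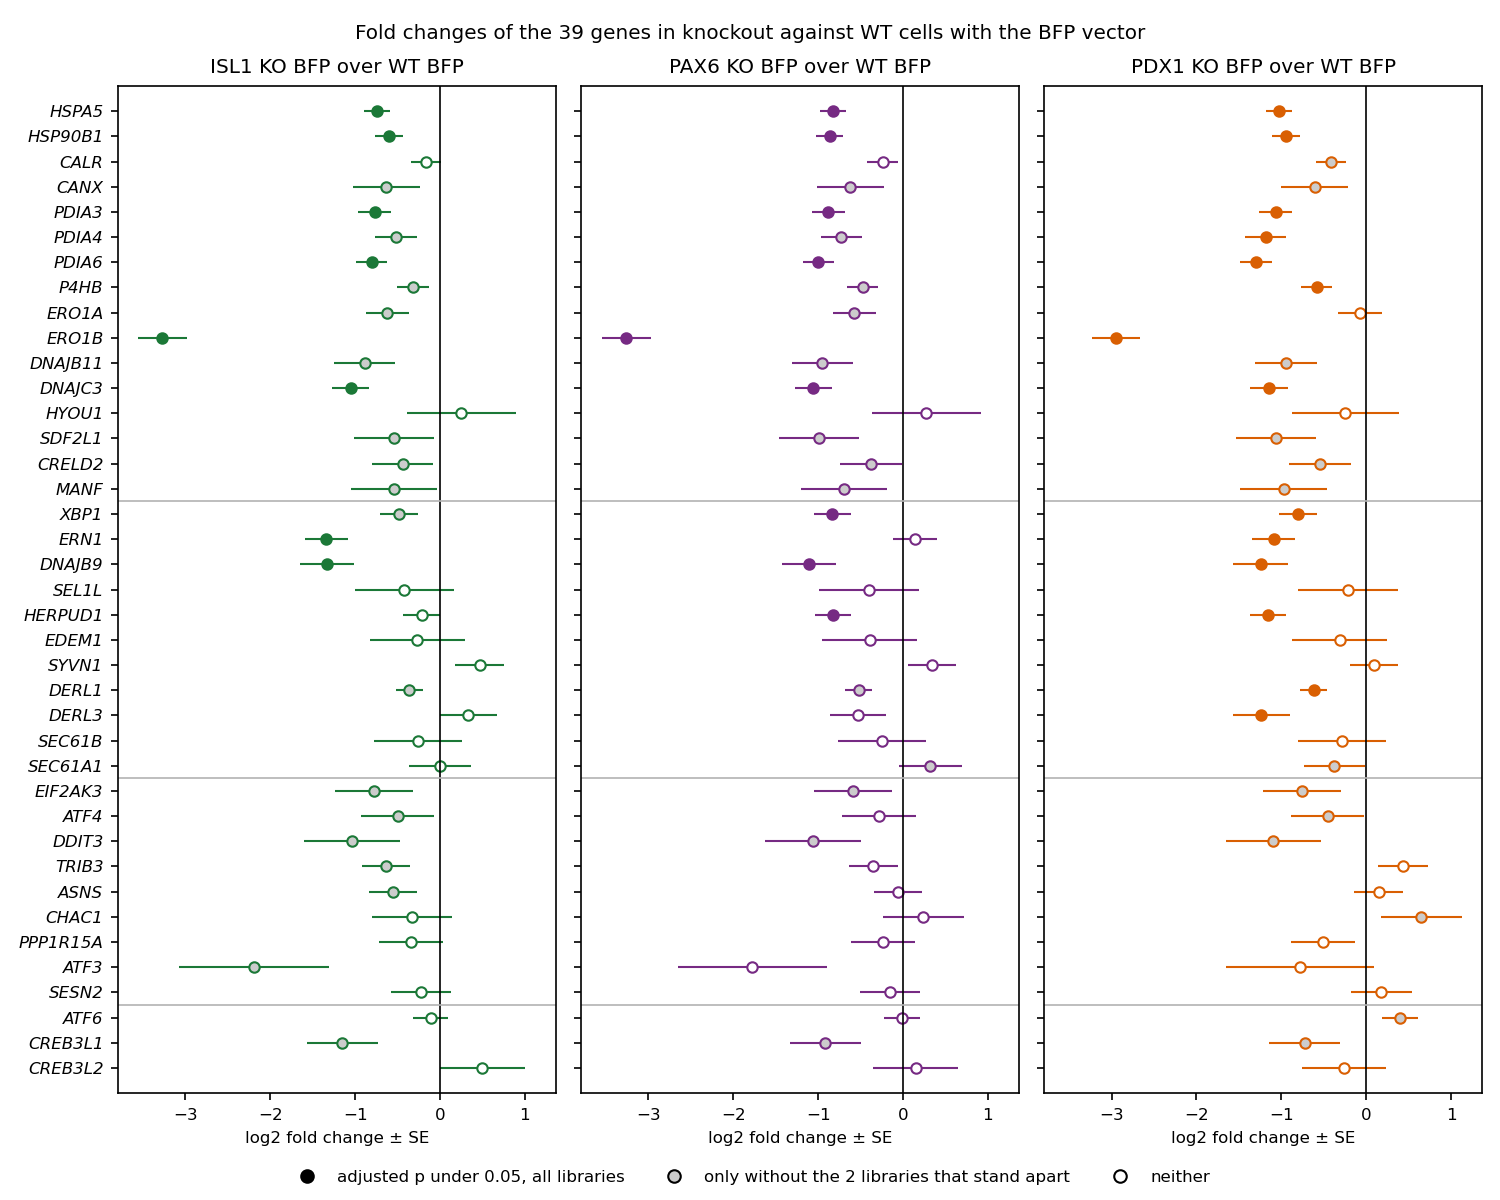
Log2 difference from WT among BFP libraries (horizontal, with SE bars) of each of the 39 members, in rows by branch, for ISL1 KO, PAX6 KO and PDX1 KO. Points filled in colour passed an adjusted p under 0.05 with all libraries. Grey points passed only without the 2 libraries that stand apart, and white points passed in neither fit. ERO1B lies farthest left in all 3 knockouts, at -3.27, -3.26 and -2.95.

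HSPA5 had 1571, 1637 and 1460 CPM in ISL1 KO libraries, 1466, 1433 and 1502 CPM in PAX6 KO libraries and 1219, 1306 and 1306 CPM in PDX1 KO libraries, against 2520 and 2690 CPM in WT libraries. Every knockout library was below both WT libraries. The log2 difference from WT was -0.74 ± 0.15 in ISL1 KO (SE; adjusted p = 0.00666, edgeR), -0.83 ± 0.15 in PAX6 KO (adjusted p = 0.00398) and -1.03 ± 0.15 in PDX1 KO (adjusted p = 0.000534). HSP90B1, which folds a smaller set of secreted and membrane proteins, had 1359, 1418 and 1249 CPM in ISL1 KO, 1128, 1178 and 1053 CPM in PAX6 KO and 992, 1087 and 1098 CPM in PDX1 KO, against 2011 and 2064 CPM in WT. Its groups did not overlap either, and its log2 differences were -0.60 ± 0.16, -0.86 ± 0.16 and -0.94 ± 0.16. The J-domain cochaperone DNAJC3 was at 42.9 to 65.8 CPM in the 9 knockout libraries, against 115.6 and 110 CPM in WT, with log2 differences of -1.05 ± 0.22, -1.06 ± 0.22 and -1.15 ± 0.22.

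Among the members that are disulfide isomerases, PDIA6 showed the largest difference from WT, with 692, 705 and 587 CPM in ISL1 KO, 530, 630 and 572 CPM in PAX6 KO and 462, 465 and 482 CPM in PDX1 KO, against 1079 and 1228 CPM in WT. The PDX1 KO libraries were the lowest of these and kept 40.7% of the WT level (log2 difference -1.30 ± 0.18, adjusted p = 0.000466, edgeR). PDIA3 had 1047, 1022 and 858 CPM in ISL1 KO, 879, 938 and 890 CPM in PAX6 KO and 737, 867 and 778 CPM in PDX1 KO, against 1627 and 1701 CPM in WT, and fell in all 3 (-0.77 ± 0.19, -0.88 ± 0.19 and -1.07 ± 0.19). PDIA4 had 409, 376 and 416 CPM in PDX1 KO, against 896 and 925 CPM in WT, and fell there (-1.19 ± 0.24, adjusted p = 0.00446). In ISL1 KO and PAX6 KO its log2 differences were -0.52 and -0.73, which did not pass by edgeR; DESeq2 called the second. CALR, the soluble lectin chaperone for glycoproteins, had a log2 difference from WT of -0.41 in PDX1 KO, which did not pass by edgeR (adjusted p = 0.163) and was called by DESeq2.

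**Figure D3:**
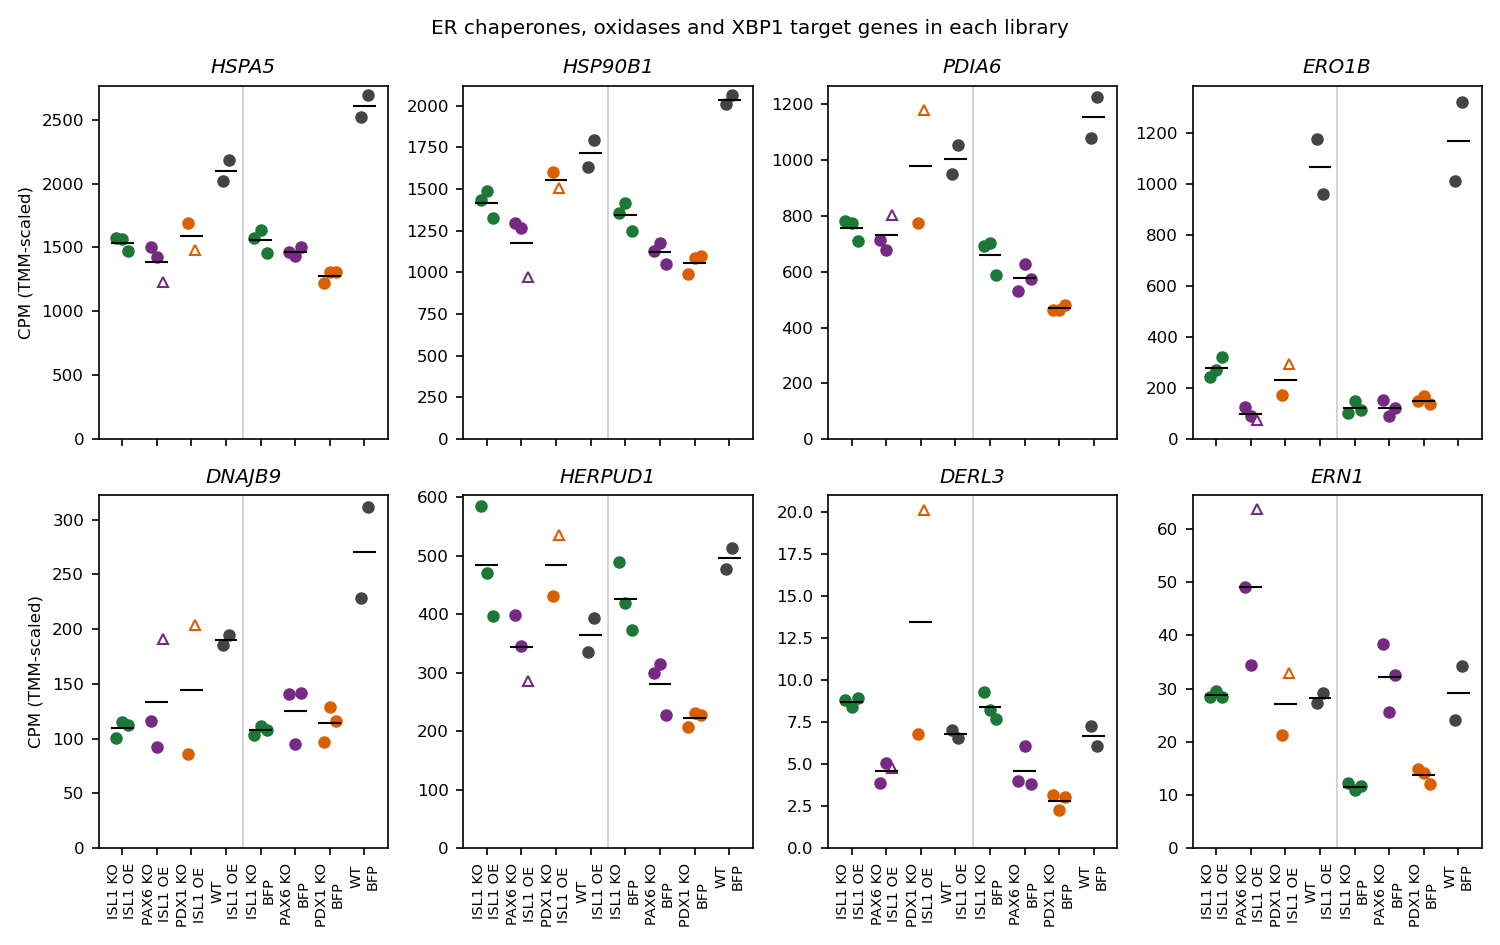
CPM (linear axis) of selected members in each of the 21 libraries, by group, with the knockouts left of WT and ISL1 OE left of BFP. Filled points are libraries, open triangles the 2 libraries that stand apart, and bars group means; HSPA5 in the 9 BFP knockout libraries lies between 1219 and 1637 CPM, below the 2 WT BFP libraries.

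ERO1B, the ER oxidase that recharges the isomerases and is typical of pancreatic cells, showed the largest difference of any member. It had 101, 147 and 114 CPM in ISL1 KO, 151, 90.5 and 123.5 CPM in PAX6 KO and 149, 167 and 137 CPM in PDX1 KO, against 1012 and 1322 CPM in WT. This left 10.4%, 10.4% and 12.9% of the WT level, with log2 differences of -3.27 ± 0.29, -3.26 ± 0.29 and -2.95 ± 0.28 and adjusted p of 4.48e-06, 7.56e-06 and 9.31e-05 (edgeR). Its widely expressed relative ERO1A had 73.0, 85.1 and 63.9 CPM in ISL1 KO, 86.6, 71.8 and 71.3 CPM in PAX6 KO and 103, 104 and 118.1 CPM in PDX1 KO, against 114 and 114 CPM in WT. ERO1A did not pass in any knockout, and in PDX1 KO its libraries overlapped those of WT.

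The small stress-inducible factors SDF2L1, MANF and CRELD2 and the cochaperone DNAJB11 had lower values in the knockouts that passed only without the 2 libraries that stand apart. SDF2L1, a partner of HSPA5 and its J-domain cochaperones, had 103, 87.5 and 88.5 CPM in ISL1 KO, 61.4, 73.8 and 68.4 CPM in PAX6 KO and 63.4, 67.1 and 63.2 CPM in PDX1 KO, against 131 and 140 CPM in WT. No knockout library reached a WT library. Its log2 differences were -0.54, -0.99 and -1.07, with adjusted p of 0.586, 0.245 and 0.17 with all libraries and 0.000706, 3.32e-06 and 7.78e-07 without the 2 (edgeR). SDF2L1 is among the members highest in those 2 libraries, at 155 CPM in PAX6 KO ISL1 OE replicate 3 and 445 CPM in PDX1 KO ISL1 OE replicate 4.

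In the IRE1 and XBP1 branch, 2 of 11 members fell in ISL1 KO (ERN1 and DNAJB9), 3 in PAX6 KO (XBP1, DNAJB9 and HERPUD1) and 6 in PDX1 KO (XBP1, ERN1, DNAJB9, HERPUD1, DERL1 and DERL3), and none rose. With all libraries, 4.48%, 4.24% and 6.84% of all genes tested fell in these 3 comparisons. Without the 2 libraries that stand apart 4, 4 and 7 members of the branch fell, and 1 rose in PAX6 KO (SEC61A1). In that fit 28.4%, 28.7% and 33.3% of all genes were called in ISL1 KO, PAX6 KO and PDX1 KO, in either direction. DNAJB9, a J-domain cochaperone of HSPA5 and a target of XBP1, was the member called in all 3 knockouts with all libraries. It had 103, 111.3 and 108 CPM in ISL1 KO, 141, 94.8 and 142 CPM in PAX6 KO and 97.0 to 129 CPM in PDX1 KO, against 229 and 311 CPM in WT, and no knockout library reached a WT library. The log2 differences were -1.33 ± 0.32, -1.10 ± 0.32 and -1.24 ± 0.32 (adjusted p = 0.0194, 0.0474 and 0.018, edgeR).

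ERN1, which encodes the IRE1 sensor and ribonuclease, differed in PAX6 KO from the other knockouts. It had 12.2, 10.9 and 11.6 CPM in ISL1 KO, 38.4, 25.5 and 32.6 CPM in PAX6 KO and 14.97, 14.1 and 12.1 CPM in PDX1 KO, against 24.1 and 34.3 CPM in WT. The ISL1 KO and PDX1 KO libraries were all below WT, while the PAX6 KO libraries overlapped those of WT. ERN1 fell in ISL1 KO (-1.34 ± 0.25, adjusted p = 0.00424) and in PDX1 KO (-1.09 ± 0.25, adjusted p = 0.0103) and had a log2 difference of 0.14 in PAX6 KO. Compared directly, PAX6 KO exceeded ISL1 KO by 1.48 ± 0.23 (adjusted p = 0.00154, edgeR), and PDX1 KO was below PAX6 KO by a log2 difference of -1.23 ± 0.23 (adjusted p = 0.00551).

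XBP1 had 512, 531 and 567 CPM in ISL1 KO, 423, 378 and 463 CPM in PAX6 KO and 401, 452 and 440 CPM in PDX1 KO, against 652 and 848 CPM in WT. All knockout libraries were below both WT libraries, and the fall passed in PAX6 KO (-0.83 ± 0.22, adjusted p = 0.0336) and PDX1 KO (-0.80 ± 0.22, adjusted p = 0.028), not in ISL1 KO (-0.48 ± 0.22, adjusted p = 0.231). HERPUD1, which gathers substrates at the degradation ligase, had 489, 419 and 372 CPM in ISL1 KO, 299, 314 and 228 CPM in PAX6 KO and 208, 232 and 227 CPM in PDX1 KO, against 478 and 514 CPM in WT. ISL1 KO overlapped WT, and the other 2 knockouts did not. HERPUD1 fell in PAX6 KO (-0.82 ± 0.21) and PDX1 KO (-1.16 ± 0.21, adjusted p = 0.00227) and was lower in PDX1 KO than in ISL1 KO by a log2 difference of -0.94 ± 0.19 (adjusted p = 0.00756). DERL3 had 3.17, 2.25 and 3.06 CPM in PDX1 KO, against 7.25 and 6.04 CPM in WT and 9.30, 8.19 and 7.69 CPM in ISL1 KO. Its log2 difference in PDX1 KO was -1.23 ± 0.33 from WT (adjusted p = 0.0229) and -1.57 ± 0.31 from ISL1 KO (adjusted p = 0.00556).

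The ERSE letters and the calls in BFP libraries were set side by side as a description. Of the 8 members whose windows held the ER stress response element, 4 fell in ISL1 KO, and 5 each in PAX6 KO and PDX1 KO. Of the 28 members with a window that did not, 3, 3 and 6 fell. Of all genes tested, 4.48%, 4.24% and 6.84% fell in these 3 comparisons. Without the 2 libraries that stand apart, 7, 7 and 8 of those with the element fell, and 16, 12 and 14 of those without. In that fit 28.4%, 28.7% and 33.3% of all genes were called, in either direction.

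Splicing of XBP1 was read from deposited transcript counts. The entry for the spliced form lacks 26 bases inside an exon of the unspliced form (chr22:28796106-28796163, minus strand, GENCODE 29, GRCh38). These bases are shown here in capitals where that entry places them (28796122-28796147), with the sequence on either side in lower case. Another annotated spliced entry, which had no counts here, places the intron at 28796124-28796149. Both placements leave the same spliced sequence, so the capitals do not fix the exact ends of the intron.
unspliced XBP1: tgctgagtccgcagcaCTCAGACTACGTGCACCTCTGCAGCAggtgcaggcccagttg
spliced XBP1: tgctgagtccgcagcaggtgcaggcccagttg

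The spliced form made up 45.9%, 59.3% and 53.4% of XBP1 transcript counts in ISL1 KO BFP libraries, 48.8%, 65.2% and 69.7% in PAX6 KO, 41.2%, 27.8% and 25.4% in PDX1 KO, and 40.2% and 37.1% in WT. ISL1 KO and PAX6 KO lay above WT without overlap, by 14.2 and 22.6 percentage points, and PDX1 KO overlapped WT. No difference passed an exact two-sided permutation test over libraries (p = 0.2 in ISL1 KO, p = 0.2 in PAX6 KO and p = 0.4 in PDX1 KO), whose smallest possible value with 3 against 2 libraries is 0.1. With ISL1 OE the shares were 41.6%, 67.2% and 49.6% in ISL1 KO, 58.4%, 64.8% and 71.3% in PAX6 KO, 52.1% and 40.1% in PDX1 KO, and 53.3% and 30.7% in WT, and the exact test gave p = 0.5, 0.1 and 1.0 for the 3 knockouts against WT. The annotated spliced entry is 1131 bases long, against 1850 bases for the unspliced entry used here to place the intron, and ends 620 bases short at the 3′ end, and the table holds 4 unspliced entries in all, so the shares are estimates that divide reads over entries of unequal length and are not measurements of the intron junction.

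**Figure D4:**
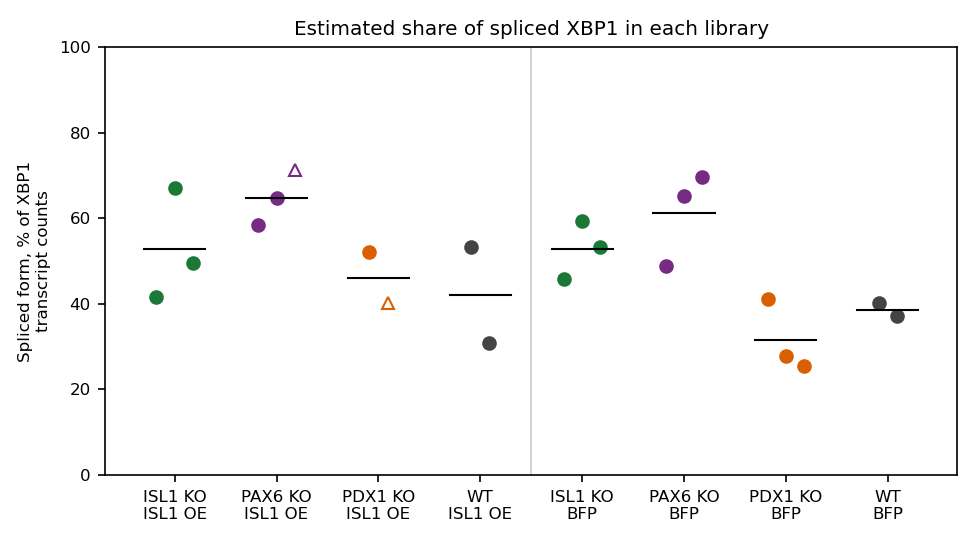
Spliced XBP1 as a percent of XBP1 transcript counts (vertical) in each of the 21 libraries, by group, ISL1 OE left of BFP and the knockouts left of WT. Points are libraries, open triangles the 2 libraries that stand apart and bars group means; with BFP the PAX6 KO libraries lie between 48.8% and 69.7% and the WT libraries at 40.2% and 37.1%.

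In the PERK and ATF4 branch, 0 of 9 members passed in any knockout with all 21 libraries (edgeR; 2, 0 and 0 had an unadjusted p under 0.05 in ISL1 KO, PAX6 KO and PDX1 KO, and DESeq2 called 0 in each). Without the 2 libraries that stand apart, 6 fell in ISL1 KO (EIF2AK3, ATF4, DDIT3, TRIB3, ASNS and ATF3). In PAX6 KO 2 then fell (EIF2AK3 and DDIT3), and in PDX1 KO 3 fell (EIF2AK3, ATF4 and DDIT3) and CHAC1 rose. Of all genes, 28.4%, 28.7% and 33.3% were called in these 3 comparisons, in either direction. The translation-regulated factor ATF4 had 206, 180 and 195 CPM in ISL1 KO, 216, 203 and 254 CPM in PAX6 KO and 195, 215 and 188 CPM in PDX1 KO, against 264 and 283 CPM in WT. DDIT3, the proapoptotic factor CHOP, had 49.0, 34.5 and 32.1 CPM in ISL1 KO, 38.7, 39.3 and 35.6 CPM in PAX6 KO and 39.3, 41.3 and 30.5 CPM in PDX1 KO, against 80.2 and 77.9 CPM in WT. All knockout libraries were below both WT libraries for each of these 2 genes. For DDIT3 the log2 differences were -1.04 ± 0.56, -1.06 ± 0.56 and -1.10 ± 0.56 with all libraries, where DDIT3 reached 253 CPM in PDX1 KO ISL1 OE replicate 4 and 27.4 CPM in replicate 2 of that group.

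The targets of ATF4 and DDIT3 took a different order. TRIB3, a pseudokinase that restrains ATF4 signalling, had 34.6, 29.1 and 44.0 CPM in ISL1 KO, 49.8, 32.2 and 49.4 CPM in PAX6 KO and 70.8, 83.1 and 72.5 CPM in PDX1 KO, against 48.8 and 62.9 CPM in WT. PDX1 KO libraries were above all others, and TRIB3 was higher in PDX1 KO than in ISL1 KO by 1.07 ± 0.26 (adjusted p = 0.021, edgeR). CHAC1, a glutathione-degrading enzyme, had 11.5, 11.0 and 11.4 CPM in ISL1 KO, 18.3, 13.3 and 18.5 CPM in PAX6 KO and 18.7, 25.4 and 22.6 CPM in PDX1 KO, against 12.9 and 15.4 CPM in WT. ASNS, asparagine synthetase, had 52.2, 52.6 and 53.2 CPM in ISL1 KO, 83.5, 55.2 and 83.4 CPM in PAX6 KO and 82.6, 95.8 and 77.6 CPM in PDX1 KO, against 64.5 and 89.7 CPM in WT. CHAC1 and ASNS were both highest on average in PDX1 KO and lowest in ISL1 KO, a difference of 0.98 ± 0.43 and 0.70 ± 0.25 log2 units that passed only without the 2 libraries that stand apart (adjusted p = 0.000347 and 0.00413, against 0.211 and 0.129 with all).

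ATF3, an early stress-induced factor, varied most within groups, with 48.0, 11.1 and 14.1 CPM in ISL1 KO, 47.2, 29.2 and 21.6 CPM in PAX6 KO and 68.7, 72.4 and 54.4 CPM in PDX1 KO, against 120 and 103 CPM in WT. No group with a knockout reached WT, and the log2 difference in ISL1 KO was -2.19 ± 0.88 (adjusted p = 0.158, edgeR). With the 2 libraries left out it was -2.20 ± 0.79 (adjusted p = 0.0477).

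**Figure D5:**
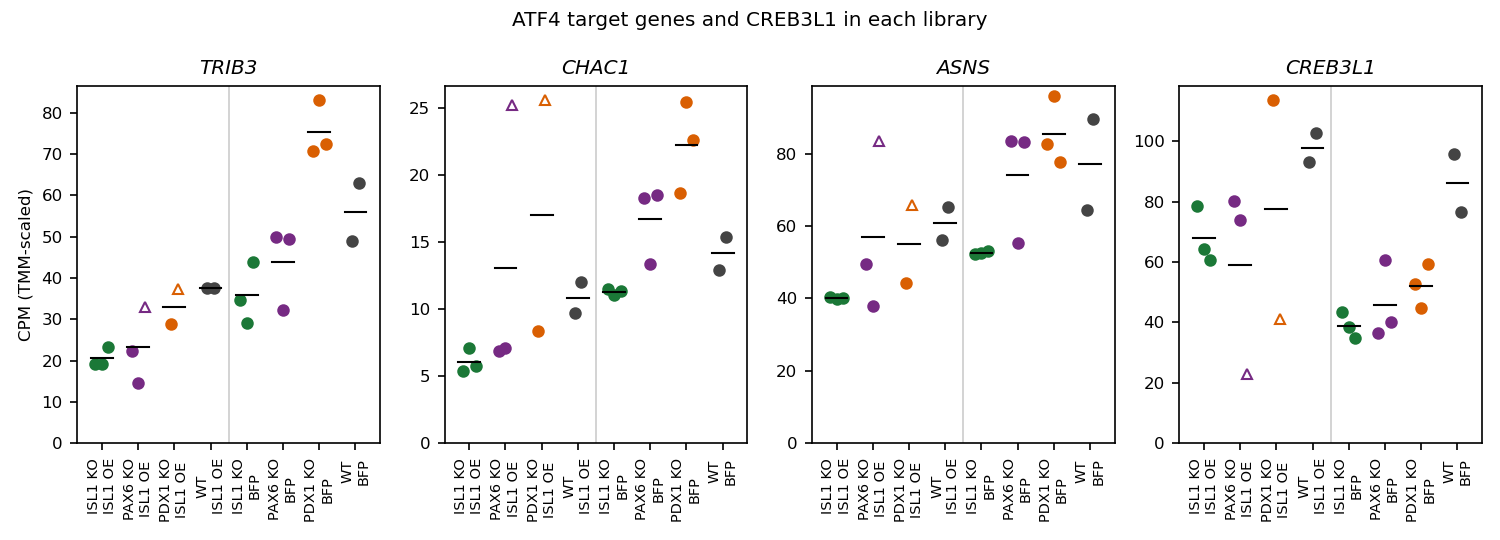
CPM (linear axis) of TRIB3, CHAC1 and ASNS of the PERK and ATF4 branch, and of CREB3L1, in each of the 21 libraries. Groups are ordered with ISL1 OE left of BFP and the knockouts left of WT. Open triangles are the 2 libraries that stand apart and bars group means; TRIB3 in the 3 PDX1 KO BFP libraries lies between 70.8 and 83.1 CPM, above the WT BFP libraries at 48.8 and 62.9 CPM.

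Of the transcription factors cut at the Golgi, 0 of 3 passed in any knockout with all libraries (edgeR; 1, 1 and 0 had an unadjusted p under 0.05, and DESeq2 called 0 in each). CREB3L1, a relative of ATF6 linked to secretory capacity, had 43.3, 38.5 and 34.8 CPM in ISL1 KO, 36.5, 60.8 and 40.0 CPM in PAX6 KO and 52.6, 44.7 and 59.3 CPM in PDX1 KO, against 96.0 and 76.6 CPM in WT. Its knockout libraries did not overlap WT, and its fall passed in all 3 knockouts without the 2 libraries that stand apart (-1.16 ± 0.19, -0.90 ± 0.19 and -0.75 ± 0.19). ATF6 had a log2 difference from WT of 0.40 ± 0.21 in PDX1 KO with all libraries and rose there without the 2 (adjusted p = 0.021, edgeR).

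Direct comparisons between knockouts with BFP called few members with all 21 libraries. Between PAX6 KO and ISL1 KO, ERN1 alone passed, higher in PAX6 KO (2.56% of members, against 2.78% of all genes). Between PDX1 KO and ISL1 KO, TRIB3 was higher and HERPUD1 and DERL3 were lower in PDX1 KO (7.69%, against 5.70%). Between PDX1 KO and PAX6 KO, ERN1 alone passed, lower in PDX1 KO (2.56%, against 3.61%). With all libraries these shares are close to the background. With the 2 libraries that stand apart left out, 4 members were higher and 4 lower in PAX6 KO than in ISL1 KO (20.5%, against 10.7% of all genes), and 4 were higher and 6 lower in PDX1 KO than in PAX6 KO (25.6%, against 20.1%). Between PDX1 KO and ISL1 KO, 6 were then higher and 15 lower (53.8%, against 5994 of 23015 genes). The lower ones included 9 of the 16 chaperones and folding enzymes, PDIA4 (-0.68 ± 0.09) and PDIA6 (-0.51 ± 0.09) among them, and 4 of the 9 members of the PERK and ATF4 branch were higher (TRIB3, ASNS, CHAC1 and SESN2).

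With the vector labelled ISL1 OE in both genotypes compared, fewer members passed. ERO1B fell in every knockout. It had 244, 273 and 320 CPM in ISL1 KO, 126.3, 90.9 and 76.1 CPM in PAX6 KO and 173 and 292 CPM in PDX1 KO, against 1175 and 961 CPM in WT. It kept 26.1% of the WT level in ISL1 KO (-1.94 ± 0.28, adjusted p = 0.00093, edgeR), 9.15% in PAX6 KO (-3.45 ± 0.29) and 21.8% in PDX1 KO (-2.20 ± 0.32). ERO1B was the only member called in ISL1 KO (2.56% of members, against 4.12% of all genes) and in PDX1 KO (2.56%, against 0.779%). In PAX6 KO, HSPA5 (-0.60 ± 0.15), P4HB (-0.70 ± 0.18) and DNAJC3 (-0.94 ± 0.22) also fell, 10.3% of members in all, against 4.25% of all genes. In the 19 libraries that do not stand apart, 19 members fell in ISL1 KO (23.6% of all genes called), 18 in PAX6 KO (14.4%) and 5 in PDX1 KO (7.89%), and none rose. Leaving out PDX1 KO ISL1 OE replicate 2 instead left 18 members called in PDX1 KO, leaving out WT ISL1 OE replicate 1 left 0, and leaving out either WT library left 1 member called in PAX6 KO.

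Within a genotype, the vector labelled ISL1 OE was set against BFP. In WT, 0 of 39 members passed (0 with an unadjusted p under 0.05 in edgeR and 0 by DESeq2; 0.036% of all genes called). In ISL1 KO, ERN1 rose to 28.4, 29.6 and 28.4 CPM with ISL1 OE, against 12.2, 10.9 and 11.6 CPM with BFP, a log2 difference of 1.32 ± 0.23 (adjusted p = 0.014, edgeR), and ERO1B rose to 244, 273 and 320 CPM, against 101, 147 and 114 CPM (1.21 ± 0.25, adjusted p = 0.0463). The libraries of these 2 genes did not overlap between vectors, and the 2 are 5.13% of members, against 0.423% of all genes called. Leaving out ISL1 KO ISL1 OE replicate 3 left 1 of the 39 members called, and leaving out any other of the 6 libraries left 0. The values of ERO1B with ISL1 OE remained below the WT libraries. In PAX6 KO, 0 of 39 passed (5 with an unadjusted p under 0.05, 1 by DESeq2; 0.414% of all genes), and with the replicate number as a block 1 passed.

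The ATF4 targets CHAC1 and TRIB3 were lower with ISL1 OE than with BFP in each knockout once the 2 libraries that stand apart were left out, and ASNS in PAX6 KO and PDX1 KO. CHAC1 had 5.36, 7.11 and 5.75 CPM in ISL1 KO with ISL1 OE, against 11.5, 11.0 and 11.4 CPM with BFP. In PAX6 KO it had 6.89 and 7.11 CPM in replicates 1 and 2 with ISL1 OE and 25.2 CPM in replicate 3, which stands apart, against 18.3, 13.3 and 18.5 CPM with BFP. In PDX1 KO it had 8.34 CPM in replicate 2 with ISL1 OE and 25.6 CPM in replicate 4, which stands apart, against 18.7, 25.4 and 22.6 CPM with BFP. Without the 2, CHAC1 fell by 0.88, 1.24 and 1.39 on the log2 scale in ISL1 KO, PAX6 KO and PDX1 KO (adjusted p = 0.00348, 0.00169 and 0.00142, edgeR), and with them it passed in none. TRIB3 fell likewise by 0.79, 1.24 and 1.36, and ASNS by 0.75 in PAX6 KO and 0.92 in PDX1 KO. In WT, CHAC1 had 9.69 and 11.98 CPM with ISL1 OE, against 12.9 and 15.4 CPM with BFP, and did not pass. CREB3L1 rose without the 2, by a log2 difference of 0.82 for ISL1 KO, 0.76 for PAX6 KO and 1.15 for PDX1 KO. In all, 3 members then rose and 2 fell in ISL1 KO (5.91% of all genes called), and 1 rose and 5 fell in PAX6 KO (6.01%), where P4HB (-0.36 ± 0.10) and the channel subunit SEC61A1 (-0.45 ± 0.12) were the others. In WT, DNAJB11 alone passed, lower with ISL1 OE (-0.45 ± 0.11; 1.69%).

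In PDX1 KO, 11 of 39 members were higher and 3 lower with the vector labelled ISL1 OE (35.9%, against 14.4% of all genes). With only the 2 groups compared in the fit 0 passed, as did 0 of all genes, and with the replicate number as a block 2 passed. Its 2 libraries differed strongly, so members are given with both. PDIA6 had 776 CPM in replicate 2 and 1182 CPM in replicate 4 with ISL1 OE, against 462, 465 and 482 CPM with BFP (1.06 ± 0.18, adjusted p = 0.002, edgeR). HERPUD1 had 432 and 535 CPM, against 208, 232 and 227 CPM (1.12 ± 0.21, adjusted p = 0.00331), and DERL3 had 6.80 and 20.1 CPM, against 3.17, 2.25 and 3.06 CPM (2.25 ± 0.33, adjusted p = 0.000725). For these 3 genes both libraries with ISL1 OE were above all 3 with BFP. Against that, DNAJB11, SDF2L1, MANF and DDIT3 were high in replicate 4 alone: SDF2L1 had 70.7 CPM in replicate 2 and 445 CPM in replicate 4, against 63.4, 67.1 and 63.2 CPM with BFP. Summed islet hormone counts were 11480 CPM in replicate 2 and 140500 CPM in replicate 4, against 14320 to 18320 CPM with BFP, and summed liver markers 10740 and 46890 CPM, against 6724 to 7403 CPM. Acinar markers summed to 1150 and 377 CPM in replicates 2 and 4, against 61.3 to 103 CPM with BFP, duct and progenitor markers to 2591 and 5546 CPM, against 1405 to 1464 CPM, and endocrine markers to 26950 and 27370 CPM, against 47910 to 51520 CPM. The part of these markers in the differences was not tested.

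Without the 2 libraries that stand apart, PDX1 KO with ISL1 OE kept replicate 2 alone, which was assumed to vary like the other groups. HSPA5, HSP90B1, CALR, PDIA3, PDIA4, PDIA6, HERPUD1, DERL3 and CREB3L1 were then higher, and TRIB3, ASNS and CHAC1 lower (30.8% of members, against 11.2% of all genes). PDIA4 had the largest difference of the 4 isomerases among the members (1.25 ± 0.12), at 939 CPM in replicate 2, against 409, 376 and 416 CPM with BFP. DDIT3 changed sign, at -0.41 ± 0.28, against 1.92 ± 0.56 with both libraries. The count was 6 to 8 with any BFP library left out, 4 without replicate 4 of ISL1 OE and 26 without replicate 2.

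The difference between the vector effect in a knockout and that in WT was tested itself. In PDX1 KO it passed for PDIA6 (1.26 ± 0.27, adjusted p = 0.0311, edgeR), HERPUD1 (1.57 ± 0.32, adjusted p = 0.0207) and DERL3 (2.22 ± 0.50, adjusted p = 0.0351), 7.69% of members, against 1.36% of all genes. In WT these genes had 952 and 1054 CPM with ISL1 OE and 1079 and 1228 CPM with BFP (PDIA6), 335 and 393 CPM and 478 and 514 CPM (HERPUD1), and 6.995 and 6.55 CPM and 7.25 and 6.04 CPM (DERL3). With those 2 libraries left out 7 passed, all higher (HSPA5, HSP90B1, PDIA3, PDIA4, PDIA6, P4HB and HERPUD1; 3.27% of all genes), and leaving out any single library other than PDX1 KO ISL1 OE replicate 2 left 0 or 1. In ISL1 KO and PAX6 KO no member's difference passed with all libraries (2 and 1 with an unadjusted p under 0.05, 0 and 0 by DESeq2; 0.0045% and 0.0% of all genes called), and ERN1 passed in ISL1 KO without the 2 (1.37 ± 0.26, adjusted p = 0.0383; 0.313% of all genes).

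Other genes of the secretory pathway were read from lists with no member in common. Between knockout and WT BFP libraries, none of these genes rose with all 21 libraries, and 4.48%, 4.24% and 6.84% of all genes tested fell in ISL1 KO, PAX6 KO and PDX1 KO. Of 38 genes of translocation and N-glycosylation, 6 each fell in ISL1 KO and PAX6 KO, and 9 fell in PDX1 KO (15.8%, 15.8% and 23.7%). They included MAGT1, an oligosaccharyltransferase subunit (-0.90 ± 0.15, -0.97 ± 0.15 and -0.93 ± 0.15), and SSR1, a subunit of the translocon-associated complex (-0.90 ± 0.17, -0.87 ± 0.17 and -0.79 ± 0.17). Of 32 genes of ER to Golgi transport 5, 5 and 4 fell (15.6%, 15.6% and 12.5%), among them SURF4, a cargo receptor (-0.88 ± 0.17, -1.12 ± 0.17 and -0.69 ± 0.17), and KDELR2, which returns escaped chaperones to the ER (-0.76 ± 0.19, -0.99 ± 0.19 and -0.92 ± 0.19).

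Of 28 other ER folding enzymes 0, 2 and 4 fell (0.0%, 7.14% and 14.3%), with PDIA5 at -0.81 ± 0.18 in PAX6 KO and -1.44 ± 0.18 in PDX1 KO. Of 27 other degradation genes 2, 3 and 1 fell (7.41%, 11.1% and 3.70%, the last below the share of all genes), with EDEM2, a processing mannosidase, lower in all 3 (-1.36 ± 0.32, -1.24 ± 0.32 and -1.25 ± 0.32). Of 51 tested genes of the wider ATF4 and integrated stress response 7, 6 and 14 fell (13.7%, 11.8% and 27.5%), with CTH, a transsulfuration enzyme, at -1.98 ± 0.38, -1.90 ± 0.38 and -2.18 ± 0.38. Of 20 cytosolic heat shock genes 0, 1 and 1 fell, BAG3 in both cases, and the list's median log2 difference was 0.03, -0.07 and 0.08, against -0.61, -0.78 and -0.96 for the 16 ER chaperones and folding enzymes.

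The fall of the folding genes stood beside large differences in hormone and liver genes. Counts of 7 islet hormone genes summed to 3455 to 4885 CPM in ISL1 KO, 4118 to 5295 CPM in PAX6 KO and 14320 to 18320 CPM in PDX1 KO, against 47470 to 58980 CPM in WT, all with BFP. None of the hormone or liver genes was at 0 in every library of a group. Of the 15 liver genes, also abundant secretory products, 7, 9 and 12 fell in the 3 knockouts. PDX1 KO had the highest hormone sum of the knockouts and the lowest HSPA5 and PDIA6. Most of that sum was GCG (13760 to 17820 CPM). INS was lowest in PDX1 KO, at 173 to 371 CPM, against 3321 to 4773 CPM in ISL1 KO and 1230 to 1818 CPM in PAX6 KO. In PAX6 KO most of the sum was GHRL, at 2512 to 3670 CPM, against 77.6 to 88.7 CPM in WT. Proliferation markers summed to 909 to 1304 CPM in ISL1 KO, 523 to 1008 CPM in PAX6 KO and 350 to 443 CPM in PDX1 KO, against 551 to 833 CPM in WT. In bulk RNA, fewer cells of a type and less RNA per cell cannot be told apart, and the part of cell makeup in these differences was not tested.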

How the data were processed

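The members and all gene lists were chosen with earlier results of these data known. Per the labels, RNA was purified with a Zymo Quick-RNA kit and libraries were made with SMART-Seq v4 and KAPA EvoPrep, chemistry that marks neither strand nor single molecules, so overlapping and antisense genes cannot be told apart and amplified copies count as reads. The submitters' processing notes name STAR and GRCh38, and no quantifier is named in the sources used here. The authors deposited estimated counts per gene and transcript (expected counts with fractions) and TPM per library and lane. Another 12 columns were set aside because the 3 libraries they name match no labelled sample.

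Estimated counts of the 4 lanes were added together per library (lowest lane correlation 0.990) and rounded to whole numbers, and TPM were averaged over lanes. No 2 libraries held identical values. Symbols and coordinates are from GENCODE 29, and promoters from RefSeq. Genes passing filterByExpr (22207, or 23015 without the 2 libraries that stand apart) entered edgeR 4.0.16 under R 4.3.3 (TMM, factors 0.707 to 1.15; quasi-likelihood F test; 1 mean per group over 8 groups; common dispersion 0.114; Benjamini-Hochberg adjusted p under 0.05). SEs come from the fold change and the F statistic. The fit was tested on simulated data. Alternatives were library totals alone, DESeq2 1.42.0 (Wald test, and its size factors in edgeR), no filter, only the groups compared, leaving out the 2 libraries, the replicate number as a block, and leaving out each library. Values by library were given for members fixed by name and for the 5 called members with the smallest adjusted p in each knockout against WT with BFP; of other lists, up to 4 called genes per comparison were eligible.

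Replicate numbers were taken to pair libraries only between ISL1 OE and BFP in PAX6 KO (3 pairs, correlations of deviations from the group means 0.176 to 0.382). Between the vectors in ISL1 KO, 3 pairs with the same number had 0.099 to 0.306. Pairs with different numbers there had -0.225 to 0.084, so the numbers may pair libraries in ISL1 KO too. No paired origin is given in the labels.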

Additional observations from a re-analysis of the deposited data

Results flagged for a closer look

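For 3 members the effect of the vector labelled ISL1 OE, against BFP, was larger in PDX1 KO than in WT by the test of that difference over all 21 libraries (edgeR, adjusted over all genes). The log2 difference between the effects was 1.263 for PDIA6 (adjusted p = 0.0311), 1.567 for HERPUD1 (adjusted p = 0.0207) and 2.220 for DERL3 (adjusted p = 0.0351). Both PDX1 KO libraries with ISL1 OE were above all 3 PDX1 KO libraries with BFP for each gene. In the fit without the 2 libraries that stand apart, replicate 2 was the only PDX1 KO library with ISL1 OE. The differences were then 0.94 for PDIA6, 1.42 for HERPUD1 and 1.26 for DERL3. With library totals alone, and with only the groups compared in the fit, 0 members passed; with the replicate number as a block 1 passed. Leaving out 1 library at a time left 0 or 1 of the 39 members called, except that 23 were called without PDX1 KO ISL1 OE replicate 2, which leaves replicate 4 alone.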

How the results depend on the processing

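The counts of members called depended on the fit. With only the groups compared in the fit, knockouts against WT with BFP called 25 (ISL1 KO), 21 (PAX6 KO) and 27 (PDX1 KO) members. Of all genes, 28.2%, 24.3% and 33.3% were called there. With ISL1 OE the counts were 18, 1 and 0 (27.7%, 0.174% and 0.0% of all genes). PAX6 KO against ISL1 KO called 2 (7.91% of all genes), PDX1 KO against ISL1 KO 17 (26.3%) and PDX1 KO against PAX6 KO 6 (15.5%). ISL1 OE against BFP called 6 in ISL1 KO (7.31%) and 0 in PDX1 KO (0.0%). The difference from WT in vector effect called 1 in ISL1 KO (0.466%) and 0 in PDX1 KO (0.0%). Without the 2 libraries that stand apart, the same comparisons called 25, 22 and 27 with BFP, 19, 18 and 5 with ISL1 OE, and 8, 21 and 10 between knockouts; ISL1 OE against BFP called 1 in WT, 5 in ISL1 KO and 6 in PAX6 KO, and the difference in vector effect called 1 in ISL1 KO and 7 in PDX1 KO. The smaller set of libraries changes the shared estimate of spread by construction. With library totals alone, 5 members were called in PAX6 KO against WT with BFP (5.65% of all genes) and 2 with ISL1 OE (3.78%). For the vector in PDX1 KO 9 were called (9.5%), and 0 for its difference from WT (0.77%). That scaling moved the median log2 difference of all genes by 0.179, 0.232 and 0.111 in ISL1 KO, PAX6 KO and PDX1 KO against WT with BFP; the share of called genes that were higher was then 43.2%, 55.6% and 45.4%, against 31.4%, 36.2% and 40.0% with TMM, and the members' medians were -0.34, -0.29 and -0.51 with 0 members higher. The DESeq2 Wald test called 4, 8 and 3 members in the knockouts against WT with ISL1 OE (5.86%, 5.59% and 2.01% of all genes). It called 2 in PAX6 KO against ISL1 KO (3.1%) and 8 in PDX1 KO against ISL1 KO (6.88%). For the vector in PAX6 KO it called 1 (1.45%), and for the difference in vector effect in PDX1 KO 8 (3.57%). With no filter on low counts, PAX6 KO against WT with ISL1 OE called 2 (2.38% of all genes).

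With the replicate block, 5 members were called in ISL1 KO (10.8% of all genes) and 8 in PAX6 KO (8.24%) against WT with ISL1 OE. Between knockouts it called 3 in PAX6 KO against ISL1 KO (5.53%), 6 in PDX1 KO against ISL1 KO (12.8%) and 2 in PDX1 KO against PAX6 KO (9.12%). For the vector it called 1 in PAX6 KO (2.98%) and 2 in PDX1 KO (2.54%). For the difference in vector effect in PDX1 KO it called 1 (0.707%). Where the numbers do not pair the libraries, the block shares only a number between them. For the vector in ISL1 KO, where they may, the block called 2 members, as did the main fit. For the vector in PAX6 KO, where the numbers were taken to pair the libraries, the block added 1 call and ended none.

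Leaving out each library in turn gave 1 to 5 called members in ISL1 KO, 1 to 7 in PAX6 KO and 8 to 11 in PDX1 KO against WT with BFP, and 1 to 2, 1 to 4 and 0 to 18 with ISL1 OE. Between knockouts it gave 1 to 1 for PAX6 KO against ISL1 KO, 1 to 3 for PDX1 KO against ISL1 KO and 1 to 1 for PDX1 KO against PAX6 KO. No share of all genes called is given beside the counts from leaving out each library. For the vector, leaving out each library gave 0 to 0 in WT, 0 to 1 in ISL1 KO, 0 to 1 in PAX6 KO and 4 to 26 in PDX1 KO, and for its difference from WT 0 to 0 in ISL1 KO, 0 to 0 in PAX6 KO and 0 to 23 in PDX1 KO. The difference from WT in spliced XBP1 share ran over 10.99 to 17.69, 18.39 to 28.83 and -12.07 to -4.145 percentage points in ISL1 KO, PAX6 KO and PDX1 KO with BFP, and over -0.4733 to 22.07, 11.56 to 34.10 and -7.147 to 15.39 with ISL1 OE. One value reversed: DDIT3 for the vector in PDX1 KO, at -0.409 without the 2 libraries that stand apart, -0.347 with the replicate block and -0.400 to 2.849 with 1 library left out (the lowest without PDX1 KO ISL1 OE replicate 4), against 1.92 with all. Of the 61 pairs of a member and a comparison called with all libraries, all 61 passed by DESeq2, 60 with its size factors, 53 without the 2 libraries and 41 with library totals alone, in the same direction.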
